A study of Oryza sativa Japonica Group with 38 samples.

Results

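The loci described here are 109 rice genes with identifiers that start with EPlOSAG and an exon length of 300 nt or more, out of 1849 EPlOSAG genes, 3722 annotated long noncoding RNA (lncRNA) genes and 7231 listed genes in all. They were chosen from the annotated list by identifier and by length alone, with exon length taken as end minus start summed over a gene's exons, and the genes of exactly 1811 nt were left out. No measured level entered this rule, although the choice was made with earlier results of these data known. All 109 had a single exon, on 11 chromosomes, with lengths between 301 and 1719 nt and a median of 875 nt. Of these, 34 were under 400 nt, 51 had 1000 nt or more and 24 lay between. The longest EPlOSAG genes just below the limit, 2 in number, had 299 nt, and the shortest one above it had 301 nt. The files give these identifiers no gene name and no function, and none is assumed here.

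The study (Oryza sativa japonica) asked how lncRNAs of rice change under stress and which kind of RNA holds them. Seedlings 2 weeks old, raised on MS medium under days (12 h) of 28 °C and nights (12 h) of 22 °C, were exposed to cold of 4 °C, drought, heat of 50 °C, high light of 50000 lux or high salt of 300 mM NaCl, or were left untreated. Roots, panicles and leaves without treatment made up the other 3 of the 9 conditions, and the labels give the same age for all of them, panicles included. The library of leaf small RNA is titled as a seedling library, while its tissue label is leaves of seedlings, which is followed here. Each condition was split into nuclear RNA, poly(A)- RNA, poly(A)+ RNA and small RNA. The nuclear RNA is labelled as total RNA of nuclei, and the other 3 fractions as whole cell RNA. Ribosomal RNA was depleted and oligo(dT) beads parted the poly(A) fractions. The 38 libraries gave 36 columns of FPKM (fragments per 1000 nt of exon and per 1e6 reads), 1 for each condition and fraction. For a single value only counting error can therefore be given, and variation between plants and libraries is not measured. Drought had 2 libraries each of poly(A)- and poly(A)+ RNA, and the sources used here do not say which of them, or whether a pool, is in the column.

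Most transcripts of RNA polymerase II receive a poly(A) tail and leave the nucleus, and oligo(dT) beads retain them. Transcripts without a tail, and fragments that have lost theirs, stay in the poly(A)- fraction. Libraries of small RNA hold microRNAs and small interfering RNAs, which guide silencing in plants, and also short pieces of longer RNAs, so reads at a long locus in such a library count short molecules that lie within it.

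In each column FPKM times length was a whole multiple of 1 step, the value of a single read, for 34159 of 34159 values of up to 200 reads in the annotated list, within 0.05 reads. The recovered depth was 24.6 to 105 M reads (M, units of 1e6) in the 23 undisputed long RNA columns and 39.7 to 85.8 M in the 9 small RNA columns. The lowest long RNA depth, 24.6 M, belonged to nuclear RNA of untreated seedlings. A step smaller by a factor of 2 would also make all of that column's values whole, and its depth 49.2 M. Its reads would then double and its intervals be narrower than printed, with its FPKM the same. In 4 columns (poly(A)+ RNA of leaves, and nuclear, poly(A)- and poly(A)+ RNA of panicles) the step differed by 5.82 to 23.9% between the annotated list and the list of assembled loci, and the steps recurred under other headings. Values of these 4 disputed columns are printed under the annotated list's headings and entered no main comparison.

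Of the 109 loci, 51 had at least 1 read in the 36 columns and 58 were listed at 0 in all of them. The loci lie on each other to a large extent. The 109 formed 57 clusters of loci that overlapped on the same strand, 24 of them with a single locus, 15 with 2, 17 with 3 and 1 with 4. In 27 of the 33 clusters of more than 1 locus exactly 1 locus had reads, in 6 none had, and in 0 did more than 1 have reads. All 24 loci that overlapped no other of the 109 had reads.

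The listed zeros went with shared bases. All 49 loci that lay wholly inside a longer listed locus of the same strand were at 0 in every column, against 9 of the 60 loci that did not. Of 50 loci with no base of their own, 0 had reads. Among 27 loci with 1 to 16 bases that no other listed locus of their strand covered, 19 had reads and 8 did not, the most for a locus at 0 being 16 bases. All 5 loci with 33 to 85 such bases, all 5 with 128 to 307 of them beside a shared part, and all 22 that shared no base with another locus had reads. The same was not seen at all loci of the lists: of 15 shorter EPlOSAG loci inside a longer one 13 were at 0, whereas 0 of 2 RAP loci and 0 of 8 assembled loci inside a longer one were. A value of 0 here is therefore a listed 0, and the sources used here do not say how reads in a shared stretch were assigned.

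**Figure D1:**
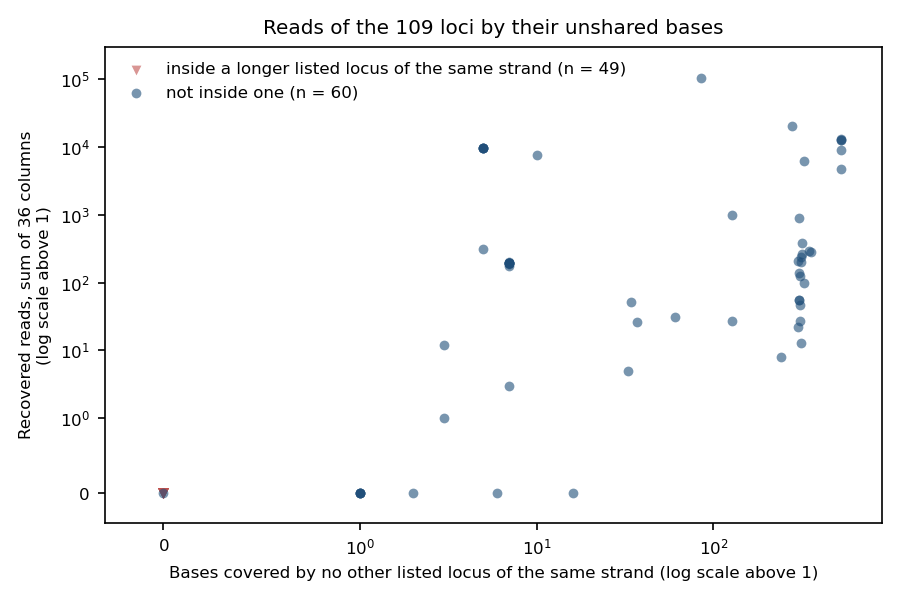
Each symbol is 1 of the 109 loci, with the bases that no other listed locus of the same strand covers on the x axis and the recovered reads summed over 36 columns on the y axis (log scales above 1). The 49 loci inside a longer one (triangles) all sit at 0 reads, and the 58 loci at 0 reads have at most 16 unshared bases.

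Reads at loci with few unshared bases rest on those bases or on a share of a stretch that a neighbour also covers. EPlOSAG00000019866, the most abundant of the 109, had 85 unshared bases of 572 (IRGSP-1.0 as named in the submitters' processing notes, chr4:32927659-32928231, minus strand, coordinates as deposited). EPlOSAG00000019855 (chr4:32898818-32899561, minus strand, 743 nt) had 280 unshared bases and lay 28098 bases away from it. EPlOSAG00000019999 (chr12:20638810-20640500, minus strand) had 10 of 1690. EPlOSAG00000019788 (chr7:22937823-22938150, plus strand, 327 nt) and the loci of 525 and 526 nt shared none.

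Several loci of equal length had near-equal reads and are treated as possible copies. A pair of loci counted as possible copies where their reads differed by less than 2 times the square root of their sum in every column where that sum was 20 or more, over at least 3 such columns. Joining loci through such pairs put 16 of them into 4 groups, in which a few pairs, 2 of 21 at 1490 nt and 3 of 10 at 1719 nt, were themselves apart in 1 column. These were 2 loci of 526 nt (EPlOSAG00000047009 and EPlOSAG00000046987), 7 loci of 1490 nt, 5 loci of 1719 nt, and 2 loci of 315 nt, EPlOSAG00000045333 and EPlOSAG00000045420, which cover the same interval on opposite strands. That last pair is thus 2 strands of 1 place. It met the rule on reads, with 0 of 9 small RNA columns equal. The 5 loci of 1719 nt stood on the plus strand of chromosome 9, from EPlOSAG00000019932 (chr9:3722-5441) to EPlOSAG00000019888 (chr9:35434-37153), and each started 7928 bases after the one before. Their small RNA reads were equal in 9 of 9 columns, 9478 reads per locus in all. Each shared all but 5 of its bases with a listed locus of 1811 nt.

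The 525 and 526 nt loci form a wider family of like values. EPlOSAG00000047009 (chr1:33562267-33562793, minus), EPlOSAG00000046998 (chr10:10853677-10854203, plus) and EPlOSAG00000046987 (chr10:20466675-20467201, minus) had equal small RNA reads in 9 of 9 columns, 3214 each. The other locus of 526 nt, EPlOSAG00000046976 (chr4:9115455-9115981, plus), had 3133, and the locus of 525 nt, EPlOSAG00000046965 (chr12:11283720-11284245, plus), had 2883. In long RNA, EPlOSAG00000046976 differed from EPlOSAG00000047009 by more than 2 times that square root in 13 of 21 columns, and EPlOSAG00000046998 in 4 of 21. The sources used here do not say how reads that match several places were shared out, so the 5 loci are not 5 independent observations. Of the 5, 3 lay on a chromosome with loci of 1472 to 1490 nt, the nearest of which was 11792 bases from EPlOSAG00000046987, 19784 from EPlOSAG00000046976 and 44187 from EPlOSAG00000046998.

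Of the 4 fractions, small RNA had the most loci with reads, though 58 of the 109 (53.2%) were at 0 there. All 51 loci with reads had some in small RNA, 34 also had some in long RNA, 17 had them in small RNA alone and 0 in long RNA alone. At 1 FPKM or more in an undisputed column, 28 of the 109 were detected in small RNA (25.7%), 7 in nuclear RNA, 7 in poly(A)- RNA and 6 in poly(A)+ RNA, and 8 in any long RNA (7.34%). The shorter EPlOSAG loci stood at 53.1% in small RNA and 1.61% in long RNA, the RAP loci at 4.38% and 61.6%, and the assembled loci at 9.32% and 81.4%. With each group of possible copies counted once, the 28 became 22. EPlOSAG00000046998 still counts apart there, though its small RNA reads equal those of the 2 grouped 526 nt loci in 9 of 9 columns. So do EPlOSAG00000046976 and EPlOSAG00000046965, whose small RNA reads are near-equal to these. In all 9 small RNA columns 10 loci were at 1 FPKM or more, or 6 with possible copies counted once.

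**Figure D2:**
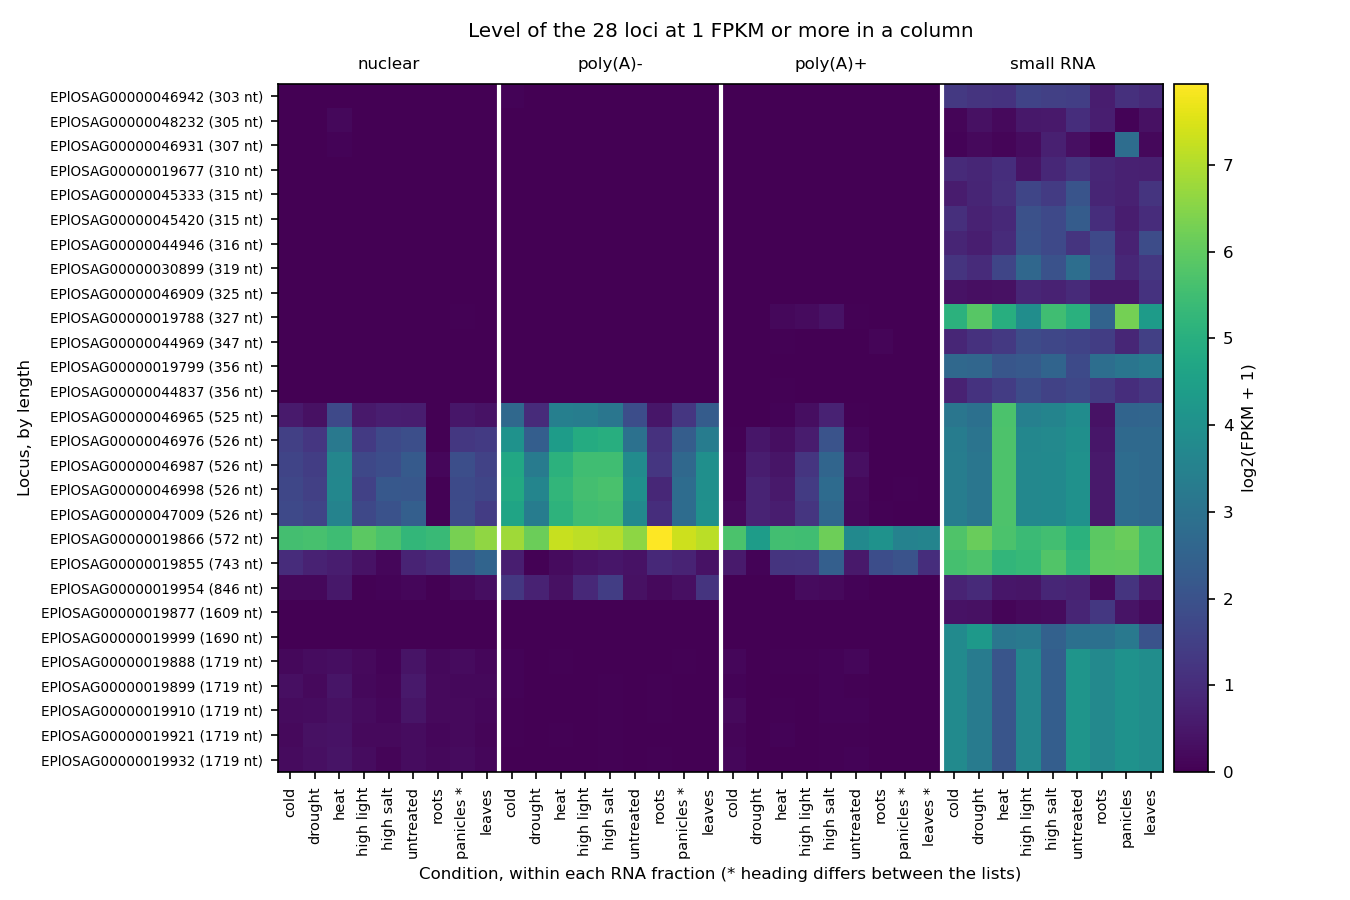
Rows are the 28 loci at 1 FPKM or more in at least 1 column, ordered by length, columns are the 9 conditions within each RNA fraction, and colour is log2(FPKM + 1). The loci of 303 to 356 nt and those of 1609 to 1719 nt have their listed reads almost wholly in small RNA. Nearly all bases of those of 1609 to 1719 nt are shared with other listed loci. The 8 loci of 525 to 846 nt are those that reach 1 FPKM in long RNA.

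The authors' deposited table also gives each locus a class by tail and by location. Of the 109, 76 were in the class Low FPKM, 16 in Bimorphic, 11 in Poly(A)- and 6 in Poly(A)+, and by location 85 were Low_expressed, 20 nucleus, 3 bimorphic and 1 cytosol. Of the 51 loci with reads, 33 were outside Low FPKM. The sources used here do not say how these classes were set.

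RNA fractions were set against each other in limma fits of log2(FPKM + 1), blocked by condition, over all loci of both lists at 1 FPKM or more in at least 3 tested columns, and the threshold was an adjusted p of 0.05 and a 2-fold difference. The labels name no separate cultures behind the libraries, and the p-values therefore cover only how these samples vary, which may be technical. Over the 7 conditions with undisputed poly(A)- and poly(A)+ columns, 7 of the 109 loci could be tested and 6 were higher in poly(A)- RNA, where 4.2% of 2859 loci were; 0 were lower, where 74.5% were. The median log2 difference was 3.02 over the 7 and -1.51 over all loci tested. The 5 loci of 525 and 526 nt passed the filter through poly(A)- RNA, so their count carries that selection.

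EPlOSAG00000019866 was the highest of the 109 in every long RNA column, with 43.5 to 97.5% of the reads of all 109. In poly(A)- RNA it had 111 FPKM in cold, 70.2 in drought, 153 in heat, 142 in high light, 131 in high salt, 94.3 in untreated seedlings and 244 in roots. In poly(A)+ RNA it had 50.7, 19.8, 45.8, 44.7, 72.3, 12.7 and 15.4 FPKM in the same order of conditions. The 2 fractions did not overlap except that drought in poly(A)- RNA lay just below high salt in poly(A)+ RNA. The log2 difference was 1.97 ± 0.516 (SE, 7 of 7 conditions higher; limma adjusted p = 0.000244).

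Its nuclear RNA held 46.9 FPKM in cold, 48.2 in drought, 43.7 in heat, 60.1 in high light, 50.2 in high salt, 37 in untreated seedlings, 40.4 in roots and 96.6 in leaves. Nuclear RNA was below poly(A)- RNA in 8 of 8 conditions (log2 difference -1.32 ± 0.605; limma adjusted p = 0.0680), short of the threshold. Against poly(A)+ RNA the nuclear level was higher in 4 of 7 conditions (0.54 ± 0.408; limma adjusted p = 0.201).

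The 525 and 526 nt loci were mostly in poly(A)- RNA. EPlOSAG00000046998 had 27 FPKM in cold, 11.2 in drought, 36.3 in heat, 46.9 in high light, 49.7 in high salt, 14.9 in untreated seedlings and 0.831 in roots in its poly(A)- fraction. In poly(A)+ RNA it had 0.0742, 0.743, 0.471, 1.58, 5.81, 0.153 and 0 FPKM in the same order of conditions. Poly(A)- RNA was the higher fraction in each of the 7 conditions, and roots were lowest in both. The log2 difference was 3.42 ± 0.405 (SE; limma adjusted p = 2.06e-13), and those of the other 4 loci were 3.42 for EPlOSAG00000046987, 3.33 for EPlOSAG00000047009, 3.02 for EPlOSAG00000046976 and 2.11 for EPlOSAG00000046965, each higher in 7 of 7 conditions. The small p-values rest largely on spread shared between loci, since the prior had 187 degrees of freedom beside 6 residual ones.

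Nuclear RNA of these loci was below poly(A)- RNA in all 8 undisputed conditions, and below poly(A)+ RNA in high salt. EPlOSAG00000046998 had 2.20 FPKM in cold, 1.84 in drought, 11.8 in heat, 1.88 in high light, 3.58 in high salt, 3.48 in untreated seedlings, 0.0361 in roots and 2.18 in leaves in nuclear RNA. Heat was the highest column and roots, at 1 read, the lowest. Against poly(A)- RNA 7 of the 109 loci were tested and 5, all of this family, were lower in nuclear RNA, where 16.8% of 959 loci were; 0 were higher, where 0.938% were. Their log2 differences ran from -2.41 ± 0.542 for EPlOSAG00000046998 to -1.67 ± 0.341 for EPlOSAG00000046965 (SE, lower in 8 of 8 conditions; limma adjusted p = 0.000253 and 6.3e-05). EPlOSAG00000046965 reached 1 FPKM in nuclear RNA in heat alone, so it passed the filter through poly(A)- RNA and its call carries that selection. EPlOSAG00000019954, tested but not called, passed the filter in the same way.

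Against poly(A)+ RNA 6 of the 109 loci were tested and 3 were higher in nuclear RNA, where 1.26% of 2786 loci were; 0 were lower, where 79.2% were. The 3 were EPlOSAG00000047009, EPlOSAG00000046976 and EPlOSAG00000046987, at log2 differences of 1.06, 1.05 and 1.05 (SE 0.377, 0.347 and 0.379; limma adjusted p = 0.00952, 0.00543 and 0.0101; higher in 5, 5 and 6 of 7 conditions). EPlOSAG00000046998, at 0.9996 ± 0.380 (limma adjusted p = 0.0142), fell just short of 2-fold. In poly(A)+ RNA the 526 nt loci reached 1 FPKM in at most 2 columns, so they passed the filter through nuclear RNA and their count carries that selection too. These calls were marginal: without untreated seedlings, without cold or without heat 0 loci passed, and without any other condition 4 did.

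EPlOSAG00000019855 differed from the rest in direction. In poly(A)- RNA it had 0.592 FPKM in cold, 0.0222 in drought, 0.188 in heat, 0.306 in high light, 0.403 in high salt, 0.317 in untreated seedlings and 0.905 in roots. In poly(A)+ RNA it had 0.473, 0.0457, 1.26, 1.33, 4.24, 0.452 and 2.67 FPKM in the same order. Poly(A)+ RNA was higher in 6 of 7 conditions, cold being the exception, and the log2 difference of -0.67 ± 0.287 (limma adjusted p = 0.0221) was under 2-fold. With each column centred on its median over all loci it was 0.91, so its direction rests on the scaling.

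**Figure D3:**
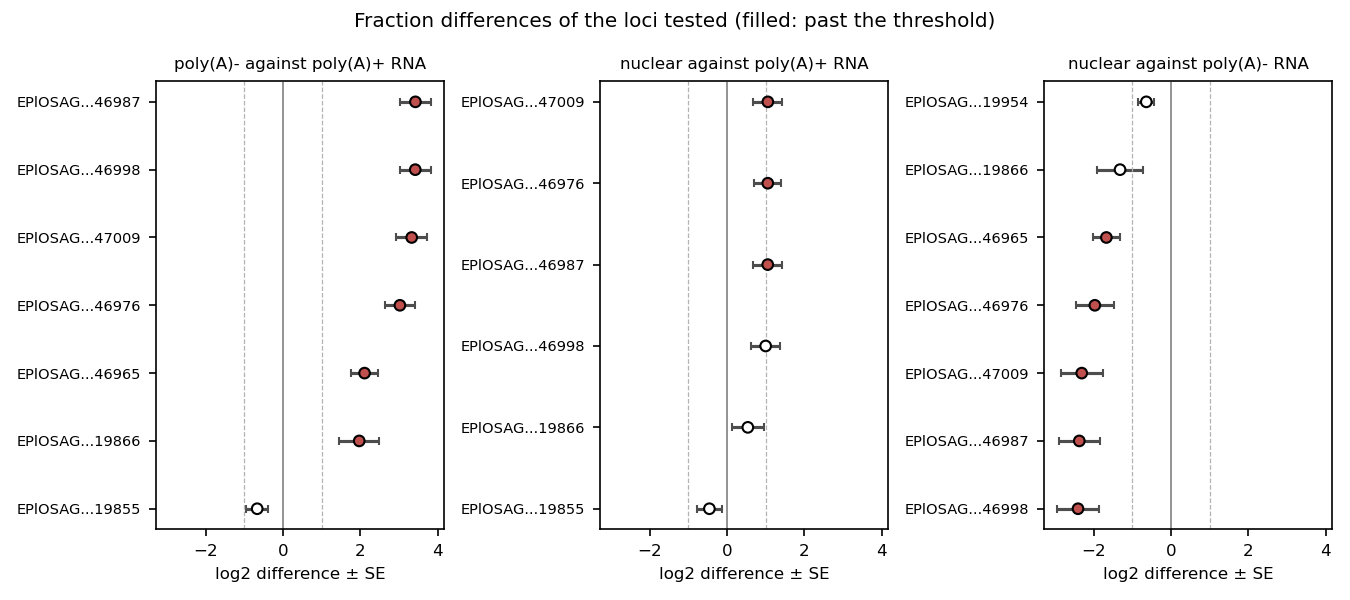
Points are the log2 differences of the loci tested in each pair of fractions, with SE bars, dashed lines at 2-fold and filled points past the threshold; loci are named by their last 5 digits. The 5 loci of 525 and 526 nt and EPlOSAG00000019866 lie to the right of 0 for poly(A)- against poly(A)+ RNA, and the 5 lie to the left of 0 for nuclear against poly(A)- RNA.

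Stressed and untreated seedlings had 1 column each per fraction, so no test was possible, and a locus counted as higher or lower where it differed at least 2-fold on the log2(FPKM + 1) scale and had 1 FPKM in one of both columns. A locus under 1 FPKM in untreated seedlings enters through the stress column where it is high, so it cannot count as lower. Likewise, one under 1 FPKM in the stress column enters through untreated seedlings and cannot count as higher. All 5 stresses share the same untreated column. The fold on this scale understates changes of low loci. The exact 95% Poisson intervals of both columns are given where a locus is described, and cover counting error only. In these bulk samples fewer cells of a type and less RNA per cell cannot be told apart.

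In poly(A)+ RNA the clearest difference was in high salt, where 6 of the 6 loci under the rule were higher, against 4.2% of 2977 loci, and 0 were lower, against 61.4%. Of the 6, EPlOSAG00000019866 alone had 1 FPKM or more in untreated seedlings, and the other 5 entered through high salt. EPlOSAG00000019866 had 72.3 FPKM (69.6 to 75.2) in high salt and 12.7 (11.7 to 13.8) in untreated seedlings, a ratio of 5.69. EPlOSAG00000046998 had 5.81 FPKM (5.01 to 6.70) in high salt and 0.153 (0.0562 to 0.333) in untreated seedlings, and EPlOSAG00000019855 had 4.24 (3.67 to 4.88) and 0.452 (0.292 to 0.667). None of these intervals overlap, and the whole table moved the other way, by a median log2 difference of -1.17.

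In the other stresses fewer loci of poly(A)+ RNA were higher, and 0 were lower. The counts of higher loci were 1 in cold (6.06% of all loci), 1 in heat (12.6%), 3 in high light (6.35%) and 0 in drought (7.13%), where 15.2, 16.1, 18 and 51.4% of all loci were lower. EPlOSAG00000019866 was the locus in cold and heat, at 50.7 FPKM (48.9 to 52.6) in cold, 45.8 (43.9 to 47.9) in heat and 44.7 (42.3 to 47.2) in high light, 3.51 to 3.99 times its untreated level. In high light EPlOSAG00000047009 and EPlOSAG00000046998 joined it, with 35 and 42 reads against 5 and 6 in untreated seedlings. EPlOSAG00000046987, a possible copy of EPlOSAG00000047009, had 36 reads against 10 and fell short of the rule.

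Poly(A)- levels of EPlOSAG00000019866 and the 525 and 526 nt loci were above untreated seedlings in cold, heat, high light and high salt and below them in drought, and the table as a whole was also higher in those 4 stresses. The loci higher by size were 1 of 7 in cold (32.1% of all loci), 5 of 6 in heat (25.2%), 5 of 6 in high light (44.9%), 6 of 7 in high salt (57%) and 0 of 6 in drought (17.9%). None was lower, where 1.19% of all loci were in cold, 1.66% in heat, 0.549% in high light, 0.368% in high salt and 22.4% in drought. EPlOSAG00000046998 had 49.7 FPKM (47.8 to 51.6) in high salt, 46.9 (44.9 to 48.9) in high light and 36.3 (34 to 38.7) in heat, against 14.9 (13.7 to 16.1) in untreated seedlings. The median log2 difference of all loci was 1.08 in high salt, 0.96 in high light, 0.67 in heat and 0.80 in cold, and after centring on it 0 of these loci were past 2-fold. EPlOSAG00000019954 (chr4:9142705-9143551, minus strand, 846 nt, 307 of them unshared) was the sixth locus in high salt, with 1.74 FPKM (1.47 to 2.04) against 0.278 (0.167 to 0.434).

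In nuclear RNA loci passed the rule in heat. There 5 of the 6 loci under the rule, the 525 and 526 nt family, were higher, against 15.6% of 475 loci, and 0 were lower, against 14.7%. Their heat values were 8.27 to 11.8 FPKM for the 526 nt loci and 2.36 for EPlOSAG00000046965, against 2.78 to 4.25 and 0.542 FPKM in untreated seedlings, at ratios of 2.51 to 4.34 with intervals apart. The whole table moved by -0.32 in the median. In cold, drought, high light and high salt 0 of the 109 loci were past the rule in either direction, where 1.75, 3.92, 2.04 and 2.4% of all loci were higher and 10.3, 8.5, 5.9 and 7.63% were lower.

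**Figure D4:**
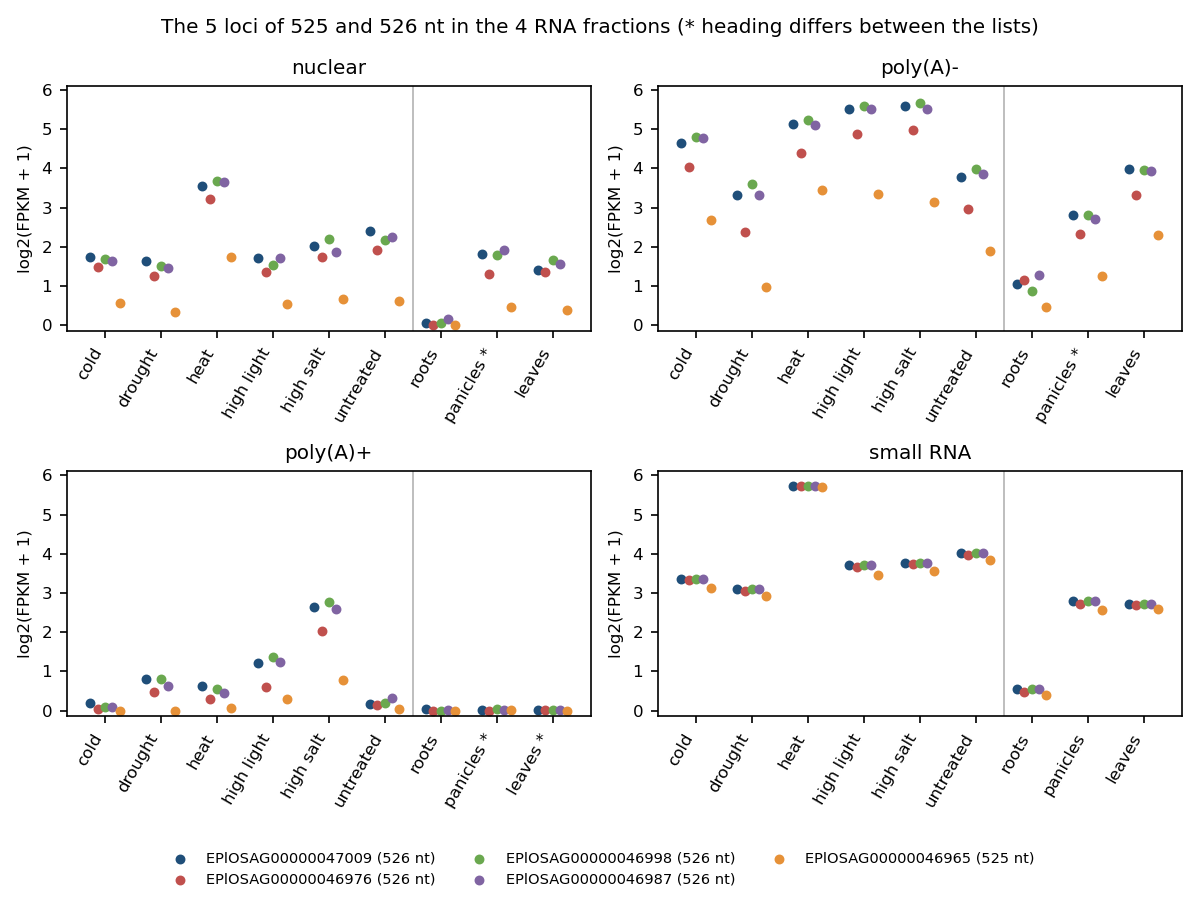
Each point is the log2(FPKM + 1) of 1 of the 5 loci of 525 and 526 nt in 1 column, with the 5 stresses left of untreated seedlings and the tissues right of the line. Roots are lowest in nuclear, poly(A)- and small RNA, heat is highest in nuclear and small RNA, and high salt is highest in poly(A)+ RNA.

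In small RNA heat gave the same family its highest values. The 3 loci of 526 nt with equal reads had 52.1 FPKM (49.1 to 55.1) in heat, against 15.3 (13.7 to 17.1) in untreated seedlings. EPlOSAG00000046976 had 51.7 and EPlOSAG00000046965 50.7 FPKM in heat, against 14.6 and 13.4. The family's other stress columns stood at 9.27 FPKM in cold, 7.62 in drought, 12.1 in high light and 12.6 in high salt for EPlOSAG00000046998, all below its untreated level, although the high salt interval (11.5 to 13.9) overlaps the untreated one. In heat 5 of the 24 loci under the rule were higher, these 5, where 0.814% of 1105 loci were, and 7 were lower, where 22.9% were. The 7 were the loci of 1719 nt, EPlOSAG00000030899 and EPlOSAG00000045420. The median log2 difference of all loci was -0.65, and after centring on it the 1719 nt loci, at -1.38, were still past 2-fold, whereas EPlOSAG00000030899 and EPlOSAG00000045420 were at -0.56 and -0.75.

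In small RNA the 1719 nt loci were lowest in heat and high salt. Each had 12.9 FPKM in cold, 8.78 in drought, 3.30 (2.90 to 3.74) in heat, 11.6 in high light and 4.17 (3.80 to 4.56) in high salt, against 16.6 (15.6 to 17.6) in untreated seedlings. Heat and high salt were apart from all other columns, at 0.199 and 0.252 times the untreated level. In high salt these were the 5 loci lower by size of 24, where 5.18% of 1119 loci were, and 0 were higher, where 0.626% were. In nuclear RNA they ranged from 0.0557 to 0.450 FPKM, and in the poly(A) fractions reached at most 0.148 FPKM. Their nuclear mean was 0.297 FPKM in heat, near the 0.312 of untreated seedlings, and was lowest in high salt, at 0.091. As the 5 loci had equal reads in small RNA, they are 1 observation there, and reads of the 1811 nt loci that cover all but 5 of their bases cannot be told apart from theirs. All 6 listed loci of 1811 nt were at 1 FPKM or more in nuclear, poly(A)- and poly(A)+ RNA. The low long RNA values of the 1719 nt loci thus do not show that the shared bases lack long RNA.

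EPlOSAG00000019999 and EPlOSAG00000019866 were the loci higher in drought, 2 of 24, where 0.915% of 1093 loci were. After centring on the median log2 difference of all loci, they were at 2.21 and 1.92. EPlOSAG00000019788 and EPlOSAG00000019855, among others, then came past 2-fold higher in drought too, as did EPlOSAG00000019999 and EPlOSAG00000019866 in cold. EPlOSAG00000019999 had 13 FPKM (12.3 to 13.8) in cold, 18.2 (17.5 to 18.9) in drought, 7.58 in heat, 8.34 in high light and 4.47 in high salt, against 6.56 (5.96 to 7.21) in untreated seedlings. Drought was its highest column, and it had 4 reads in all long RNA columns together. EPlOSAG00000019866 had 68 FPKM (65.7 to 70.3) in drought, against 32.5 (30.2 to 34.9) in untreated seedlings, and its other stress columns, between 41.3 and 53.2 FPKM, were also above untreated seedlings.

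Lower in drought were 3 loci (36.8% of all loci), and in cold the same 3 (36.5%). These were EPlOSAG00000030899 (chr3:35618226-35618545, plus, 319 nt) and the opposite-strand pair of 315 nt. EPlOSAG00000030899 had 1.27 FPKM (0.778 to 1.97) in cold, 0.950 (0.621 to 1.39) in drought, 2.13 (1.43 to 3.06) in heat, 5.35 in high light and 3.03 in high salt, against 6.24 (4.94 to 7.78) in untreated seedlings. The high light interval overlaps the untreated one, and those of the other 4 stresses lie below it. EPlOSAG00000045420 and EPlOSAG00000045333 had 0.703 and 0.777 FPKM in drought, 1.10 and 0.516 in cold, against 4.00 and 3.20 in untreated seedlings. Both are 3 of 24 loci under the rule, a smaller share than among all loci, whose median log2 difference was -0.85 in cold and -0.87 in drought, and after centring EPlOSAG00000030899 in drought alone stayed past 2-fold, at -1.02.

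EPlOSAG00000019788, a small RNA locus with 14 reads in all long RNA columns, had 33.1 FPKM in cold, 57.2 in drought, 30.2 in heat, 14 (12.2 to 16) in high light and 44 in high salt, against 31.5 (28.6 to 34.7) in untreated seedlings. High light was the lowest stress column and its only one past the rule, as 1 of 24 loci, where 1.47% of 1227 loci were lower, and its log2 difference of -1.12 became -0.94 after centring, short of 2-fold. EPlOSAG00000019855 had 36.6 to 53.9 FPKM over the 5 stresses, against 36.2 (34 to 38.4) in untreated seedlings, and its heat and high light intervals overlap the untreated one.

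**Figure D5:**
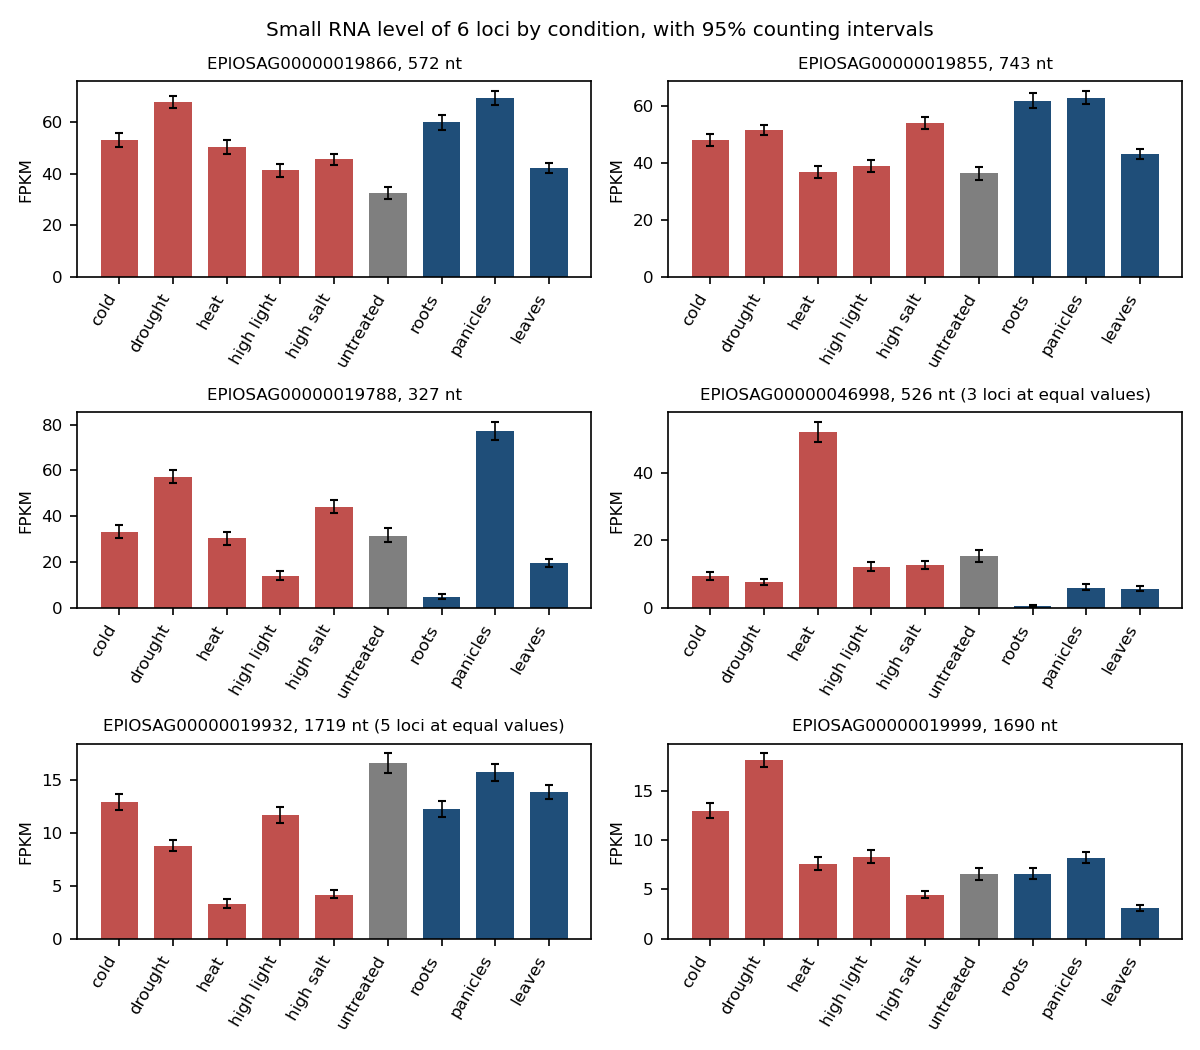
Bars are small RNA FPKM in each column, with exact 95% Poisson intervals from the recovered reads; red marks the stresses, grey untreated seedlings and blue the tissues. Heat stands out for EPlOSAG00000046998 (52.1 FPKM), heat and high salt are low for EPlOSAG00000019932 (3.30 and 4.17 FPKM), and panicles are highest for EPlOSAG00000019788 (77.2 FPKM).

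Roots set the 525 and 526 nt loci apart most. In poly(A)- RNA the 5 of them were lower in roots than in leaves, 5 of 7 loci under the rule, where 15.6% of 954 loci were lower and 38.3% higher. EPlOSAG00000046998 and EPlOSAG00000046965, under 1 FPKM in roots, entered the rule through leaves and could not count as higher. The 526 nt loci had 0.831 to 1.41 FPKM in roots, against 9.04 to 14.8 FPKM in leaves, and EPlOSAG00000046965 had 0.384 (0.199 to 0.671) against 3.91 (3.40 to 4.49). In small RNA EPlOSAG00000046998 had 0.467 FPKM (0.241 to 0.816, 12 reads) in roots, against 5.57 (4.84 to 6.37, 211 reads) in leaves. In nuclear RNA the 5 loci had 0 to 3 reads each in roots, where 3 reads are 0.108 FPKM for a 526 nt locus. At 0 reads, the interval of EPlOSAG00000046976 there reached up to 0.133 FPKM. There 6 loci were lower by size (46.5% of 865 loci), of which EPlOSAG00000019866 alone had 1 FPKM or more in roots. The others entered through leaves and could not count as higher. Centring on the median difference of -0.96 left 0 of the 6 past 2-fold.

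Over all 9 small RNA columns EPlOSAG00000046998 thus ran from 0.467 FPKM in roots to 52.1 FPKM in heat, a ratio of 112, while EPlOSAG00000019866 and EPlOSAG00000019855 varied 2.14 and 1.74 times between their lowest and highest columns. In small RNA 6 of 23 loci were lower in roots than in leaves (14.5% of 916 loci), the family and EPlOSAG00000019788, which had 4.76 FPKM (3.75 to 5.95) in roots and 19.3 (17.6 to 21.2) in leaves. The family's loci, all under 1 FPKM in roots, entered through leaves and could not count as higher. The 1 locus higher in roots (2.29% of all loci) was EPlOSAG00000019877 (chr2:28719563-28721172, plus, 1609 nt, 5 of them unshared), with 1.44 FPKM (1.19 to 1.73) in roots and 0.181 (0.112 to 0.277) in leaves. Under 1 FPKM in leaves, it entered through roots and could not count as lower. Its next highest column was untreated seedlings at 0.783 FPKM, whose interval of 0.581 to 1.03 lies below that of roots.

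Panicles and leaves differed at other small RNA loci. Of 25 loci under the rule 3 were higher in panicles than in leaves (4.12% of 898 loci) and 1 was lower (31.3%). EPlOSAG00000019788 had 77.2 FPKM (73.3 to 81.3) in panicles and 19.3 in leaves, its highest column of all 9. EPlOSAG00000046931 (chr9:16726097-16726404, plus, 307 nt) had 6.12 FPKM (5.03 to 7.37, 110 reads) in panicles and 0.136 (0.0280 to 0.396, 3 reads) in leaves. In its other 7 columns it had 0 to 13 reads, and high salt was the highest of them at 0.639 FPKM. Being under 1 FPKM in leaves, it entered through panicles and could not count as lower. EPlOSAG00000019999 had 8.20 FPKM (7.65 to 8.79) in panicles and 3.10 (2.80 to 3.43) in leaves, and the lower locus, EPlOSAG00000044946, had 0.702 (0.374 to 1.20) and 2.59 (1.97 to 3.34). With less than 1 FPKM in panicles, EPlOSAG00000044946 entered through leaves and could not count as higher. The median log2 difference of all loci was -0.80, and after centring 6 loci were higher and 0 lower, EPlOSAG00000044946 being at -0.28.

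The abundant loci of chromosome 4 differed between tissues in long RNA. In poly(A)- RNA EPlOSAG00000019866 had 244 FPKM (239 to 250) in roots, its highest value in any column, against 139 (136 to 142) in leaves. In nuclear RNA the order was the reverse, with 40.4 FPKM (38.1 to 42.7) in roots and 96.6 (94 to 99.2) in leaves. EPlOSAG00000019855 also had less nuclear RNA in roots, 0.919 FPKM (0.644 to 1.27) against 4.84 (4.34 to 5.38) in leaves. These differences went with those of the whole table, whose median log2 difference was 0.72 in poly(A)- and -0.96 in nuclear RNA. After centring EPlOSAG00000019866 was at 0.09 in poly(A)- and -0.28 in nuclear RNA, and EPlOSAG00000019855 at -0.65 in nuclear RNA. Under the disputed headings of panicles EPlOSAG00000019866 had 77.8 FPKM in nuclear, 160 in poly(A)- and 10.4 in poly(A)+ RNA.

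The 9 loci of 1472 to 1490 nt were low throughout and even among themselves. In small RNA they had 0.220 to 0.223 FPKM in untreated seedlings, their highest column in the mean, and 0.0962 to 0.0973 in roots, the lowest in the mean. These values rest on 13 and 7 reads per locus, whose counting intervals overlap. For EPlOSAG00000020043 heat was the lowest, at 0.0796 FPKM. Of the 9 loci, 8 had 118 to 120 reads over the 9 small RNA columns, and EPlOSAG00000020043 had 98. In long RNA they stayed at or below 0.137 FPKM, with 0 in poly(A)- RNA of roots. Each had 7 unshared bases.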

How the data were processed

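The members and lists were chosen with earlier results of these data known. The authors deposited FPKM values per gene, per the file headers, in a list of annotated lncRNAs and a list of assembled loci; the submitters' processing notes list, without saying for what, TopHat2, DESeq2 and, as genome build, IRGSP-1.0. Reads were recovered here from FPKM times length. Lengths that give whole reads are end minus start, so starts behave as counted from 0, and coordinates are printed as deposited. The table of RefSeq genes named none of the loci. Fractions were tested with limma 3.58.1 (R 4.3.3) on log2(FPKM + 1) over all loci of both lists, with a condition block, a trended prior and Benjamini-Hochberg adjustment, after a check on simulated data. Single columns were compared by size, with exact 95% Poisson intervals (scipy 1.17.1), which reach above 0 also at a count of 0. Intervals cover counting error only. Loci were named where they passed a fraction test, were among the 8 highest of a fraction, formed a copy group, or were among the 3 largest ratios per stress and direction. Loci past the size rule between tissues, and exceptions within a family, were named as well. Alternatives were another pseudocount, filters, centring, leaving out conditions, all headings as given, no block and no trend.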

Additional observations from a re-analysis of the deposited data

Results flagged for a closer look

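Under the same stress, 3 loci differed from untreated seedlings in opposite directions in different fractions, each by at least 2-fold in FPKM with counting intervals apart; the differences between fractions were not tested, and every group is a single column. In high salt EPlOSAG00000019855 had 9.4 times its untreated level in poly(A)+ RNA (4.24 against 0.452 FPKM) and 0.151 times it in nuclear RNA (0.107 against 0.712 FPKM, 5 against 13 reads). In drought EPlOSAG00000047009 had 5.82 times its untreated level in poly(A)+ RNA (0.743 against 0.128 FPKM), 0.495 times in nuclear RNA (2.11 against 4.25 FPKM) and 0.499 times in small RNA (7.62 against 15.3 FPKM). EPlOSAG00000046998, of the same length, had 4.85 times in poly(A)+ RNA (0.743 against 0.153 FPKM) and 0.499 times in small RNA, with the same small RNA reads as EPlOSAG00000047009. The small RNA values of both are thus 1 observation. EPlOSAG00000046987, a possible copy of EPlOSAG00000047009, had 17 reads in drought against 10 in untreated seedlings in poly(A)+ RNA, with overlapping intervals. All of these comparisons share the untreated columns, of which the nuclear one had the lowest depth. On the log2(FPKM + 1) scale the drought columns of all loci moved by a median of -1.02 in poly(A)+ and -0.87 in small RNA, and after centring on it EPlOSAG00000046998 and EPlOSAG00000047009 were at -0.05 in small RNA, so the opposite direction there is not seen relative to the table. EPlOSAG00000047009 in nuclear RNA was then at -0.54, and EPlOSAG00000019855 at -0.40 in nuclear RNA of high salt.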

How the results depend on the processing

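The 6 loci whose poly(A)- level exceeded their poly(A)+ level were called under each of the 15 alternatives, and without any 1 condition the count was 6; with a pseudocount of 0.1, 1 locus was also lower. The count of loci with nuclear above poly(A)+ RNA ranged from 0 to 4 without 1 condition, and was 6 with columns centred and 5 with all 9 conditions as headed. The count with nuclear below poly(A)- RNA was 5 without any 1 condition and 0 with no filter on low values, where 0 of 5450 loci passed in either direction (limma; 12 of the 109 loci had an unadjusted p under 0.05). Centring reversed EPlOSAG00000019855, to 0.91 for poly(A)- against poly(A)+ and 1.31 for nuclear against poly(A)+ RNA. The causes were not tested. Summed over the 5 stresses, a 4-fold limit left 4 higher values in poly(A)+, 1 in poly(A)-, 0 in nuclear and 0 in small RNA, and 5 lower ones in small RNA. Centring gave 0 higher in poly(A)- RNA and 16 higher and 11 lower in small RNA, and a pseudocount of 0.1 gave 1 lower in poly(A)-, 1 lower in nuclear and 30 lower in small RNA. For tissues against leaves, centring gave 0 lower in nuclear RNA and 2 higher in small RNA for roots, and 6 higher and 0 lower in small RNA for panicles. Under the disputed heading of poly(A)- RNA of panicles, EPlOSAG00000047009, EPlOSAG00000046998, EPlOSAG00000046987 and EPlOSAG00000046965 were lower than in leaves. There 22.1% of 190 annotated loci were lower, and after centring 0 of the 109 were. At 10 or more reads 12 loci were detected in poly(A)+, 16 in poly(A)- and 13 in nuclear RNA. Lengths of end minus start plus 1 would give 111 loci, and a limit of 3 times the square root 17 possible copies. The 51 loci with reads were also 51 in the 32 undisputed columns, an alternative chosen after seeing the data. Fractions were paired by condition; without that block the counts were 6, 3 and 6, EPlOSAG00000019866 becoming the sixth locus with nuclear below poly(A)- RNA (limma adjusted p = 0.0370). For stresses and tissues no paired analysis was possible because each group has a single column. Depth limits the nuclear RNA of untreated seedlings most: 3 reads there are 0.232 FPKM for a 526 nt locus, or 0.116 FPKM with the smaller step.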
